A study of Mus musculus with 2 samples.

Results

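The distal microRNA cluster of the imprinted Dlk1-Dio3 region, which runs from miR-379 to miR-410, was described in the limb of mouse embryos of the strain B6NCrl at 12.5 days. Its members are the gene rows of the deposited count tables whose start lies on chromosome 12 between 109600000 and 109750000 of mm10, on either strand, and 43 of 1973 rows met this rule. Both libraries belong to 1 group, labelled healthy, with male and female embryos pooled and no treatment or engineered allele named, and they came from RNA shorter than 30 nucleotides. Replicate 1 pooled limbs of 88 embryos and replicate 2 limbs of 68, and the labels do not say whether fore- or hindlimbs were taken. The design holds no second condition, and members, libraries and clusters are what is compared here.

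In the Dlk1-Dio3 region the maternal chromosome gives rise to long non-coding RNAs, among them Meg3, Rian and Mirg, and to the small RNAs embedded along them, while Dlk1, Rtl1 and Dio3 are expressed from the paternal chromosome. Rian carries a long array of C/D-box snoRNAs. The microRNAs from miR-379 to miR-410 lie beyond Rian in a tightly packed group found in placental mammals. Several of its microRNAs have been studied in neurons, such as miR-134 in dendritic spines, and the miR-376 hairpins are known substrates of A-to-I editing. The members therefore share a locus and very likely long precursor transcripts, and they are not independent of each other.

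Of the 43 rows, 39 lie on the plus strand and were read on their own strand. The other 4 are minus-strand rows that overlap a plus-strand hairpin, and for them the opposite-strand reads were taken. In this way Gm24321 gave the value of Mir409, Gm25252 that of Mir376a, Gm25750 that of Mir380, and Mir299b that of Mir299a. Levels are CPM, counts per 1000000 own-strand counts of all gene rows, and are given as mean ± SD over the 2 replicates. Each count covers a hairpin, so 5p and 3p arms were not separated. Detected members are those that reached 10 CPM in replicate 1 as well as in replicate 2.

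Replicate 1 held 4525636 gene counts and replicate 2 3604284. A count of 0 was taken to allow 3 counts, or 0.663 and 0.832 CPM. The tissue label was checked against fixed markers. Mir196b of the HoxA cluster (86831 ± 9376 CPM), the cartilage gene Mir140 (23899 ± 1020 CPM) and the skeletal muscle gene Mir206 (2347 ± 213 CPM) were high, and of the neural genes Mir137 stood at 151 ± 9.9 CPM, Mir128-1 at 157 ± 46 CPM and Mir9-3 at 1.11 ± 0.0035 CPM. The other limb genes of the list stood at 51056 ± 7523 CPM (Mir214), 20574 ± 218 CPM (Mir10b) and 7403 ± 120 CPM (Mir205). The liver gene Mir122 gave 17.0 and 13.0 CPM, a low level that still passed 10 CPM in both libraries. Mir9-2 and all copies of Mir124a gave 0 counts. Copies of Mir124a and of Mir9 have near-identical sequences, and reads that map to several places were set apart in the tables, so these values do not measure the amount of neural RNA. In these tissue pools, fewer cells that express a microRNA and less of it per cell cannot be told apart.

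The 6 highest members are shown first by their mature arms, because they held 62.7% of the reads of the cluster in the mean. Sequences are those of RefSeq on GRCm38.p6, where 41 of the 43 members had a mature entry. The 3p arm of Mir487b was not listed there. Capitals mark the seed, bases 2 to 8. A microRNA pairs with its targets mainly, though not only, through the seed.
miR-409-5p (chromosome 12, 109743172 to 109743194, plus strand): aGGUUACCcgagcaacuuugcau
miR-409-3p (109743204 to 109743225): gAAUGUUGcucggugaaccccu
miR-487b-5p (109727347 to 109727367, plus strand): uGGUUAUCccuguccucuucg
miR-411-5p (109710190 to 109710210, plus strand): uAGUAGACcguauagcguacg
miR-411-3p (109710225 to 109710246): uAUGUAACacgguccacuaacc
miR-369-5p (109743431 to 109743452, plus strand): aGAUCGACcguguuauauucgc
miR-369-3p (109743466 to 109743486): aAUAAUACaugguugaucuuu
miR-379-5p (109709065 to 109709085, plus strand): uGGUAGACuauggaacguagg
miR-379-3p (109709102 to 109709123): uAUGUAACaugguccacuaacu
miR-382-5p (109733781 to 109733802, plus strand): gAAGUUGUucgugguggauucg
miR-382-3p (109733819 to 109733840): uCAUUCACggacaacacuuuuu
Among these arms 1 seed occurs in 2 hairpins: miR-379-3p and miR-411-3p both have the seed AUGUAAC and are the same at 20 of 22 positions counted from the 5′ end. No other seed repeats among these 11 arms.

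Most of the cluster gave reads, and a few hairpins gave most of them. Of the 43 members 35 (81.4%) were detected, where 14.7% of all gene rows were. Rows outside the cluster were read on their own strand alone, and with that column alone 31 members were detected. A mean of 100 CPM was reached by 29 members, against 9.78% of all gene rows, and 1000 CPM by 12 members, against 4.92%. Of all 1973 rows 929 share a stretch of 20 nucleotides with another gene, but only 4 of the 43 members do. Reads that map to several places were set apart, which can lower the counts of such rows. How far this held down the shares of all gene rows was not tested. Together the members held 210412 counts, or 4.65% (95% Clopper-Pearson interval 4.63 to 4.67), in replicate 1 and 167882, or 4.66% (4.64 to 4.68), in replicate 2. The share of the whole cluster was thus almost the same in both libraries (4.65% ± 0.0060). The total of own-strand counts does not hold the reads of the 4 minus-strand rows, which made up 22.9% of the cluster, and with both strands of all genes in the total the share was 4.54%. The intervals are approximate for the same reason and speak of counting error alone, because PCR copies of a molecule are counted as separate reads.

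Mir409 stood at 6298 CPM in replicate 1 and 6912 CPM in replicate 2, or 6605 ± 434 CPM. Mir487b stood at 6592 and 6372 CPM (6482 ± 156). The libraries placed these highest members in opposite order, so neither can be called the highest. Mir411 followed at 5927 and 6060 CPM (5993 ± 94), below both of them in each library. Mir369, whose 3p arm has been linked to AU-rich elements in mRNA, stood at 3978 and 4070 CPM (4024 ± 65), and Mir379, the first hairpin of the run, at 2977 and 3360 CPM (3168 ± 271). The gap between Mir411 and Mir369 was larger than the spread within either. Mir382 stood at 2818 and 3021 CPM (2919 ± 144), and its values overlapped those of Mir379.

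The next 6 members lay between 1057 and 2520 CPM in the mean. Mir541 stood at 2765 and 2275 CPM (2520 ± 346) and Mir381 at 2440 and 2272 CPM (2356 ± 119), with overlapping values. Mir376a stood at 1799 and 1437 CPM (1618 ± 256), above Mir299a at 1278 and 1425 CPM (1352 ± 104) in both libraries. Mir380 (1222 and 924 CPM, 1073 ± 210) and Mir154 (1094 and 1020 CPM, 1057 ± 53) changed places between the libraries. Down the whole order of the 35 detected members, the values of 18 of 34 neighbouring pairs did not overlap, and 16 overlapped. The order of such close members is not resolved by these libraries.

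The 6 highest members held 61.5% of the reads of the cluster in replicate 1 and 64.0% in replicate 2, and the 12 highest held 84.3% and 84.0%. Mir409 and Mir487b alone held 28.1% in the mean. A read of a library of such short RNA spans a mature arm, so levels were not divided by length. Annotated rows ran from 49 to 123 nucleotides. Per 100 nucleotides of row the 12 highest members were the same except that Mir134 replaced Mir380. The row that gave Mir380 has 112 nucleotides and its hairpin 61, so this exchange rests on the length of the row. Ranks by CPM and by CPM per length correlated with a Spearman's rho of 0.992 across the 35 detected members, a description across genes of the same libraries.

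**Figure D1:**
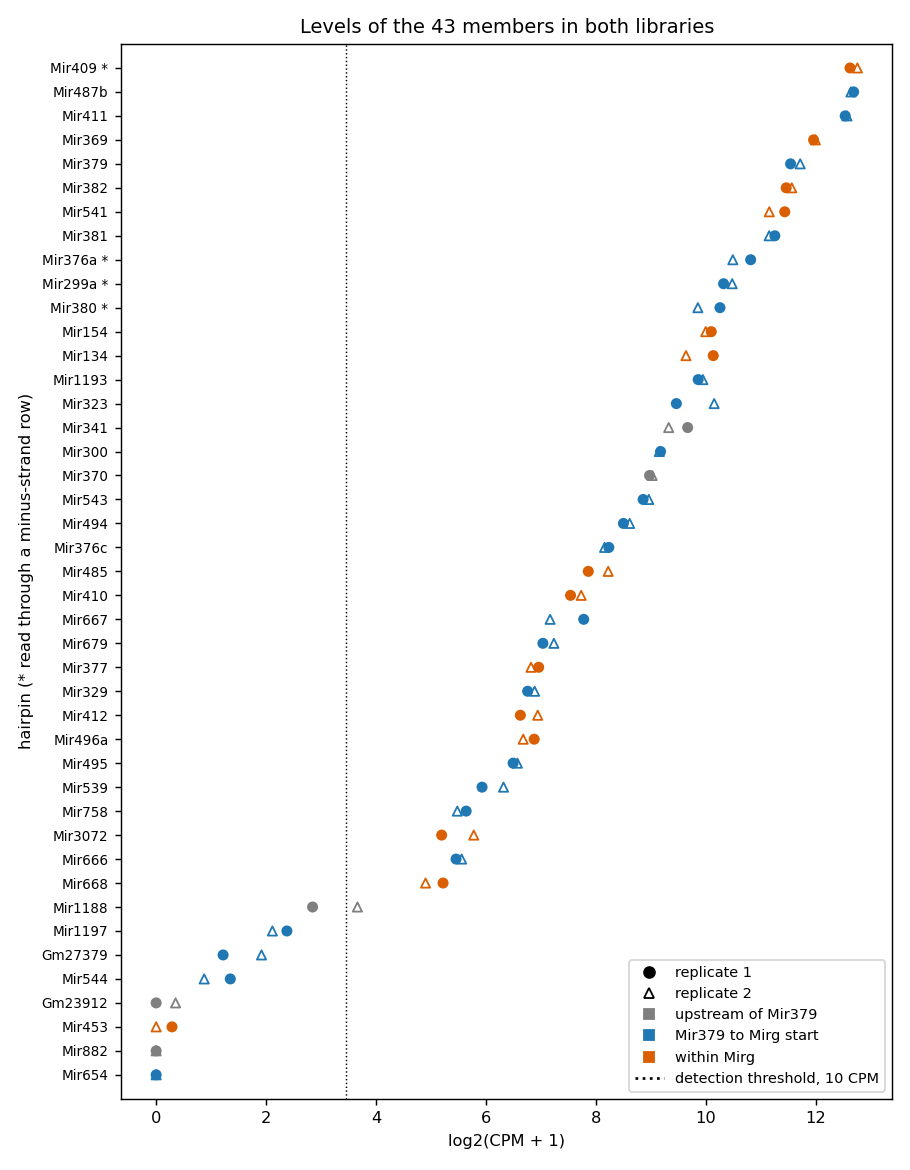
Levels of all 43 members as log2(CPM + 1) on the x axis, ordered by mean, with a filled circle for replicate 1, an open triangle for replicate 2 and colours for the position in the cluster. The libraries lie close together down the whole list, 35 members lie right of the threshold of 10 CPM in both libraries, and Mir409, Mir487b and Mir411 stand at the top.

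High and low hairpins were mixed along the run. Mir379 to Mir410 spans 34.7 kb and holds 37 of the members, of which 32 were detected. Of the members from Mir379 on, the detected ones had a Spearman's rho of -0.11 between level and distance from Mir379 (n = 33), and a rho of 0.03 between the levels of neighbours (n = 32 pairs). Both are given as descriptions, since hairpins of 1 locus in the same libraries are not independent. Detected neighbours, with undetected members between them passed over, differed by 4.43 times in the median. Of these 32 neighbouring pairs 10 differed by more than 10 times.

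Some of the steepest steps lay between close hairpins. Mir487b stood 110 times above Mir539, 714 nucleotides downstream, in replicate 1, and 80.9 times above it in replicate 2. From Mir539 to Mir382, the next detected member 5568 nucleotides on, the mean level was 42.1 times higher again. The undetected Gm27379 (2.05 ± 1.02 CPM) and Mir544 (1.19 ± 0.51 CPM) lie between them. Mir412 (98 and 122 CPM) lies between Mir409 and Mir369 with gaps of 51 and 49 nucleotides, and in replicate 1 these exceeded it by 64.5 and 40.7 times. In replicate 2 the same ratios were 56.7 and 33.4. Hairpins that sit side by side therefore gave reads at levels far apart in both libraries. Mir410 (185 and 211 CPM), with which the named run ends, lay 19.3 to 21.5 times below Mir369, its neighbour. Between Mir679 and Mir1193, only 20 nucleotides apart, the step was 7.13 and 6.58 times, with Mir1193 higher. How well each sequence is recovered in a library was not tested, so a step between hairpins is a step in reads.

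By position, 5 members lie upstream of Mir379, 24 from Mir379 to the start of Mirg and 14 within Mirg (chromosome 12, 109729764 to 109749460, plus strand). The upstream part held 2.68% ± 0.23 of the reads of the cluster, the middle part 56.6% ± 0.10 and the part within Mirg 40.7% ± 0.13. Upstream, Mir341 at 812 and 640 CPM (726 ± 122) and Mir370 at 502 and 519 CPM (510 ± 12) were the detected members, and both lie in introns of Rian (109603940 to 109661716, plus strand). The middle part, in which no annotated plus-strand host covered a hairpin, had 20 of 24 members detected, from 44.5 ± 2.3 CPM for Mir666 to Mir487b.

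Within Mirg 13 of 14 members were detected. The 9 hairpins that overlap an annotated exon ranged from 32.5 ± 5.2 CPM for Mir668 to Mir369, with a median of 198 CPM. The 4 detected hairpins of its introns, Mir409, Mir541, Mir154 and Mir496a, had a median of 1789 CPM and ranged down to 109 ± 11 CPM for Mir496a. The ranges overlapped widely, and these groups of hairpins of 1 transcript were not tested against each other. The exon members include Mir134 (1122 and 795 CPM), which exceeded its neighbour Mir668 by 31.0 and 27.6 times.

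**Figure D2:**
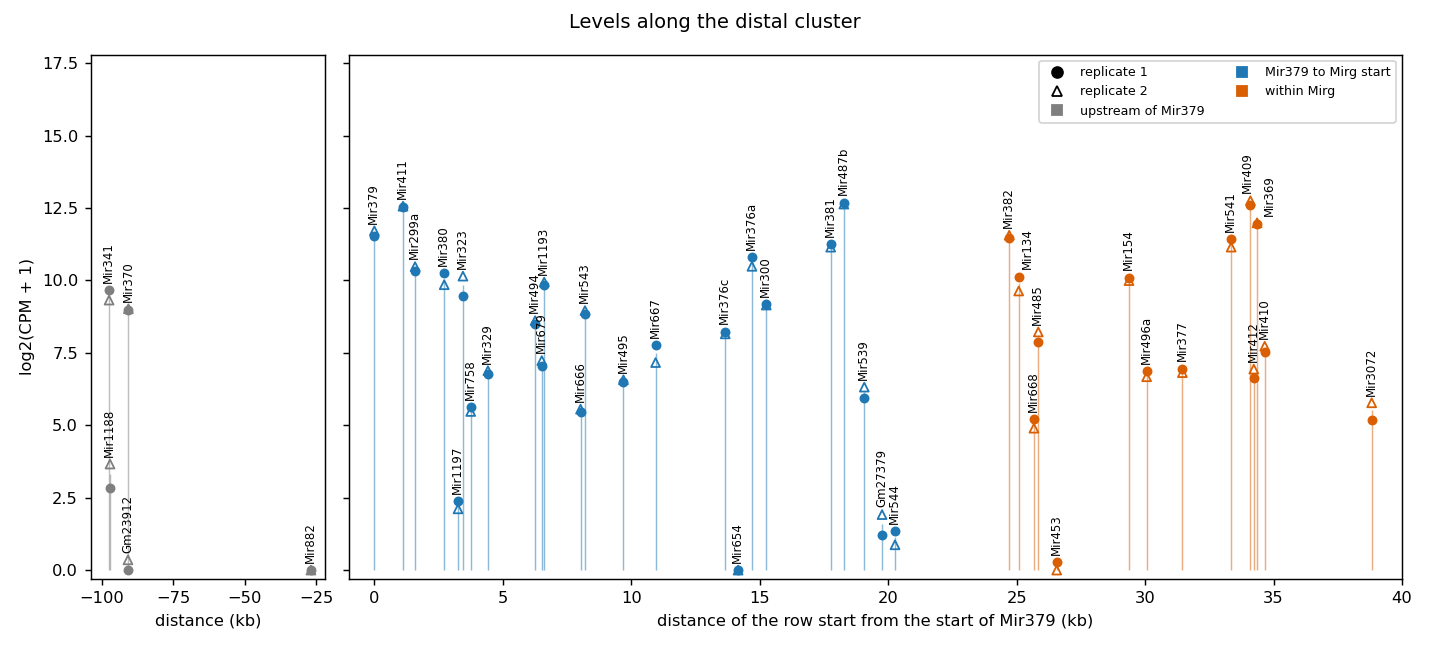
Level of each member as log2(CPM + 1) against the distance in kb from the start of Mir379, with the upstream members in the left panel on a scale of their own and lines drawn to the mean level. High and low hairpins alternate along the run, as with Mir412 between Mir409 and Mir369, and neighbouring detected pairs differ by 4.43 times in the median.

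By families of related hairpins, listed by name, the miR-154 family held most of the reads. Each of its 13 hairpins was detected, and their sum was 54.8% ± 1.4 of the reads of the cluster, from 69.3 ± 13.4 CPM for Mir539 to Mir409. The miR-379 family of Mir379, Mir411, Mir380 and Mir758 held 22.1% ± 0.30. Within it Mir411 exceeded Mir379 by 1.99 and 1.80 times and Mir758 (49 and 44 CPM) by 121 and 139 times. Mir411 and Mir758 share a stretch of 21 nucleotides, which covers 12 nucleotides of miR-411-3p and 9 of miR-758-3p. A read of a whole arm is therefore not common to both hairpins, and short or partial reads, which could have been set apart, were not separated.

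The miR-376 family held 4.10% ± 0.58 in its measured members Mir376a and Mir376c, and Mir376b was not analysed here. Mir376a exceeded Mir376c (300 and 284 CPM) by 5.99 and 5.05 times. Mir376c shares a stretch of 31 nucleotides with Mir376b, 18 of them in miR-376c-5p, so its level is uncertain. Mir487b shares 20 nucleotides with Mir376b, outside the mature arm listed for it. Per nucleotide of row the ratio of Mir376a to Mir376c was 4.30 and 3.62, since the row that gave Mir376a is longer than its hairpin. Reads of edited miR-376 molecules could not be separated, and their part in these levels was not tested. The remaining 18 hairpins of the lists, 14 of them detected, held 16.9% ± 1.2. Mir1193, Mir666, Mir544, Gm23912, Gm27379 and Mir882 are in none of these lists.

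Among the 76 mature arms listed, with 70 seeds, seeds were shared between members in 6 cases, each between 2 hairpins. The 3p arms of Mir487b, Mir376c and Mir539 and the 5p arm of Mir485 were not listed. Further shared seeds could therefore be missed. Besides AUGUAAC, the seed GGUAGAC occurs in miR-379-5p and miR-1193-5p, AGGUCAC in miR-370-5p and miR-1193-3p, and GGUUGUC in miR-494-5p and miR-410-5p. The seed GGUUGCC occurs in miR-453 and miR-496a-5p, and GGUUGAC in miR-1197-5p and miR-758-5p. No other mature arm of the RefSeq table had any of these 6 seeds, but 12 member arms have a seed that occurs in an arm of a hairpin outside the members. Among them are miR-411-5p with miR-7229-5p, miR-329-3p with miR-362-3p and miR-410-3p with miR-344d-3p, and also miR-376c-5p with miR-376b-5p of the same locus. The hairpins with AUGUAAC summed to 9162 ± 365 CPM and those with GGUAGAC to 4125 ± 311, with Mir379 in both sums, while those with GGUUGAC summed to 50.0 ± 4.3 CPM. Because arms were not separated, these sums also hold reads of arms without the seed. They lack reads set apart as mapping to several places and any arm that was not listed. The sums are therefore not a measure of all reads with such a seed.
miR-1193-5p (109715716 to 109715735, plus strand): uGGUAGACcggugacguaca
miR-1193-3p (109715750 to 109715770): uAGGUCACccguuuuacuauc
Mir1193 stood at 928 and 984 CPM (956 ± 40), and its arms share a seed each with Mir379, 3.21 to 3.41 times higher, and with Mir370, which it exceeded by 1.85 and 1.90 times.

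Beyond the seed the arms share longer stretches, chosen for a search after the sequences had been seen. They were picked from the arms of the members, and a stretch with so many fixed letters is rare in any arm. Few or no matches elsewhere could thus be foreseen. The counts of these stretches describe the arms and do not test whether they are particular to the cluster. The letters GGUCCAC occurred in 5 of 36 3p arms of the members (13.9%) and in 0 of 673 other 3p arms of mouse. They were found in 0 of 38 member 5p arms and 0 of 659 other 5p arms. The RNA strand alone was searched. Capitals mark these letters in the arms of Mir379, Mir411, Mir380, Mir758 and Mir412, where they start at position 11, or at position 8 in miR-412-3p.
miR-379-3p: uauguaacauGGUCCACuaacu
miR-411-3p: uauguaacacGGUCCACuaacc
miR-380-3p: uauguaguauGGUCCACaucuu
miR-758-3p: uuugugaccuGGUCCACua
miR-412-3p: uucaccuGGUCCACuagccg
All 5 hairpins were detected, at levels from 46.2 ± 3.7 CPM for Mir758 to 5993 ± 94 CPM for Mir411, so hairpins with these letters spanned a wide range of levels. They held 22.3% ± 0.33 of the reads of the cluster.

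In the 5p arms the letters AGGUUNNCC, with N for any base, occurred in 7 of 38 arms of the members (18.4%) and in 0 of 659 other 5p arms. Among 3p arms they occurred in 0 of 36 of the members and 2 of 673 others (0.297%). A related stretch, GGUNGACC, occurred in 6 of 38 (15.8%) and again in 0 of 659, and among 3p arms in miR-323-3p and miR-154-3p and 0 of 673 others. No 5p arm of a member held both stretches. Capitals mark AGGUUNNCC in the arms below, which start it at positions 1 to 9.
miR-409-5p: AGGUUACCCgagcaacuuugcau
miR-381-5p: agcgAGGUUGCCCuuuguauauu
miR-154-5p: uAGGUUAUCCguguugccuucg
miR-300-5p: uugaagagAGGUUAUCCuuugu
miR-494-5p: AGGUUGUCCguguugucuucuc
miR-377-5p: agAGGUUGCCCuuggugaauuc
miR-496a-5p: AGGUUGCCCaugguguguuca
These hairpins, in the order of their levels, ranged from 6605 ± 434 CPM for Mir409 to 109 ± 11 CPM for Mir496a and held 24.1% ± 0.52 of the reads of the cluster. Shorter stretches were searched too, and these also occurred outside the members. GGUU occurred in 16 of 38 member 5p arms and 73 of 659 others. Among 3p arms it occurred in 2 of 36 of the members and 46 of 673 others. For GACC these counts were 9 of 38 and 27 of 659, then 4 of 36 and 34 of 673. For CANGGU they were 2 of 38 and 22 of 659, then 8 of 36 and 11 of 673. Such a shared stretch is a description of sequence and was not tested for an effect on the level.

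Hairpins with arms that are alike at most positions also differed in level, although the levels of the arms themselves were not separated. miR-300-3p and miR-381-3p are the same at 19 of 22 positions, and Mir381 exceeded Mir300 (577 and 568 CPM) by 4.23 and 4.0 times. miR-543-3p and miR-495-3p are the same at 18 of 22, and Mir543 (463 and 497 CPM) exceeded Mir495 (89 and 94 CPM) by 5.20 and 5.28 times. In miR-154-3p and miR-369-3p 17 of 21 positions are the same, and Mir369 exceeded Mir154 by 3.64 and 3.99 times. In these 3 pairs the same hairpin was the higher in both libraries. The folding energy per nucleotide, GC content and length of the hairpins had Spearman's rho values of 0.12, -0.15 and -0.03 with the level across 34 detected members, as descriptions without a test.

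At the lower end, the detected members under 150 CPM were Mir679 (140 ± 14 CPM), Mir377 (118 ± 8.1), Mir329 (112 ± 7.0), Mir412 and Mir496a, followed by Mir495 (91.6 ± 3.5), Mir539, Mir758, Mir3072 (44.7 ± 12.9), Mir666 and Mir668. Between them and the higher members lay Mir323 (920 ± 305 CPM), Mir134, Mir1193, Mir341, Mir300, Mir370, Mir543, Mir494 (376 ± 21), Mir376c, Mir485 (265 ± 47), Mir410 and Mir667 (180 ± 54). The 8 members that were not detected fall into 2 kinds. Mir1188 (28 and 42 counts), Mir1197 (19 and 12), Gm27379 (6 and 10) and Mir544 (7 and 3) gave counts in both libraries. Mir882 and Mir654 had 0 counts in both, Gm23912 1 count in replicate 2 and Mir453 1 count in replicate 1. Where the count was 0, up to 3 counts were taken as allowed, and the exact 95% Poisson interval reaches 3.69 counts. The single counts of Gm23912 and Mir453 have an exact 95% Poisson interval of 0.025 to 5.57 counts. The nearest rows outside the window are Mir3071 (start 109595318, minus strand) at 196 ± 20 CPM on the proximal side and Mir1247 (start 110278048, minus strand) at 24.8 ± 7.6 CPM on the distal side.

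In the spread of log2 ratios, the libraries differed over the members by about as much as over all genes. Across the 29 members at 100 CPM or more, the log2 ratio of replicate 2 over replicate 1, with 0.5 counts added, had a median of 0.03 and an SD of 0.27, beside -0.01 and 0.32 over all 193 genes at that level. A difference of more than 1.5 times was seen in 2 of 29 members (6.90%), Mir323 and Mir667, and in 17 of 193 genes (8.81%). The median counting error of a member's log2 ratio was 0.034.

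Among members at 100 CPM or more, Mir323 was the furthest above in replicate 2, at 704 and 1135 CPM, a log2 ratio of 0.69 (SE 0.034), followed by Mir485 (231 and 298 CPM, 0.36) and Mir412 (0.32). Some members with fewer counts lay further apart, such as Mir1188 with 28 and 42 counts, a log2 ratio of 0.90 (SE 0.35). In the other direction, again at 100 CPM or more, Mir667 stood at 218 and 143 CPM, a log2 ratio of -0.61 (SE 0.078), followed by Mir134 (-0.50) and Mir380 (-0.40). An exact binomial test was run on the 2 counts of each gene, with Benjamini-Hochberg adjustment over 439 genes. It called 23 of 39 tested members (59.0%), a larger part than the 42.6% called of all tested genes. The test calls smaller differences where counts are high, and 29 of these 39 members but 193 of the 439 genes reached 100 CPM. Of the 23 members called, 14 were higher in replicate 2, beside 21% of all genes, and 9 in replicate 1, beside 21.6%. The adjusted p of this exact test was 2.1e-90 for Mir323 and 9.0e-15 for Mir667. It compares these 2 libraries with counting error alone, and reads are not independent molecules.

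A negative binomial exact test in edgeR, whose dispersion comes from the same 2 libraries, called 0 of the 439 genes, with 25 genes and 1 member, Mir323, at an unadjusted p under 0.05. With a spread estimated from the difference that it tests, this count says nothing about stability. Mir323 and Mir758, its neighbour at 216 nucleotides, differed by 14.4 times in the first library and 26.1 in the other. The log2 ratios of neighbouring detected members had a Spearman's rho of 0.01 across 32 pairs, a description without a test.

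**Figure D3:**
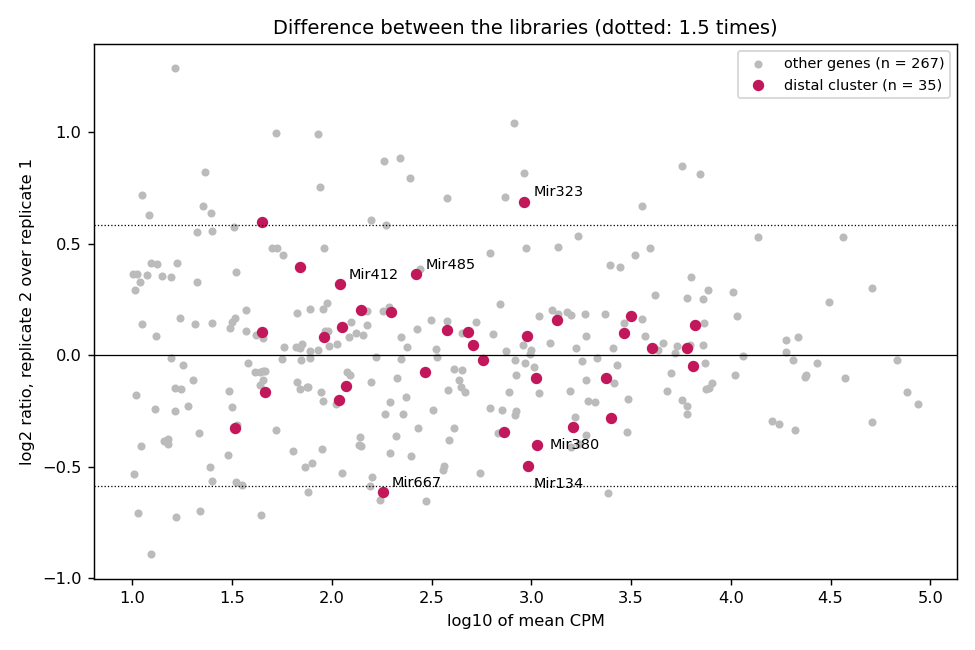
Log2 ratio of replicate 2 over replicate 1 against log10 of the mean CPM for genes at 10 CPM or more, with the 35 members in colour, the other genes in grey and dotted lines at 1.5 times. Of the 6 labelled members, Mir323 and Mir667 lie outside the dotted lines, and so does the unlabelled Mir3072 at 35.6 and 53.8 CPM, a log2 ratio of 0.60.

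Beside other clusters the distal members spread reads over many hairpins. The proximal cluster of the same imprinted region, antisense to and around Rtl1, held 1.46% ± 0.021 of the counts with 11 of 15 rows detected, led by Mir431 at 5391 ± 103 CPM and Mir127 at 5023 ± 200 CPM. Its highest hairpin made up 36.8% of its reads, against 14.2% in the distal cluster. In the miR-17-92 cluster, known from proliferating cells, 6 rows held 8.28% ± 0.95 and Mir17 made up 61.5%. In the X-linked Mir322 cluster 7 rows held 8.33% ± 0.0049 and Mir322 made up 82.0%. These clusters have fewer rows, and 3 proximal, 2 miR-17-92 and 2 Mir322 rows share a stretch with another gene, so the parts are given as descriptions of reads that could be assigned.

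The median level of the detected members was 510 CPM in the distal cluster, 645 CPM in the proximal cluster, 7189 CPM in miR-17-92, 1234 CPM in the Mir322 cluster and 284 CPM over all 290 detected genes. From the highest to the lowest detected hairpin the levels spanned 203 times in the distal cluster, 69.7 times in the proximal cluster, 2029 times in miR-17-92, 4384 times in the Mir322 cluster and 7802 times over all detected genes. The lowest detected row was Mir19b-1 at 25.1 CPM in miR-17-92 and Mir450-2 at 15.6 CPM in the Mir322 cluster. How many of their reads were set apart as mapping to several places was not tested. The spans therefore describe assigned reads alone. The differences between clusters were not tested.

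**Figure D4:**
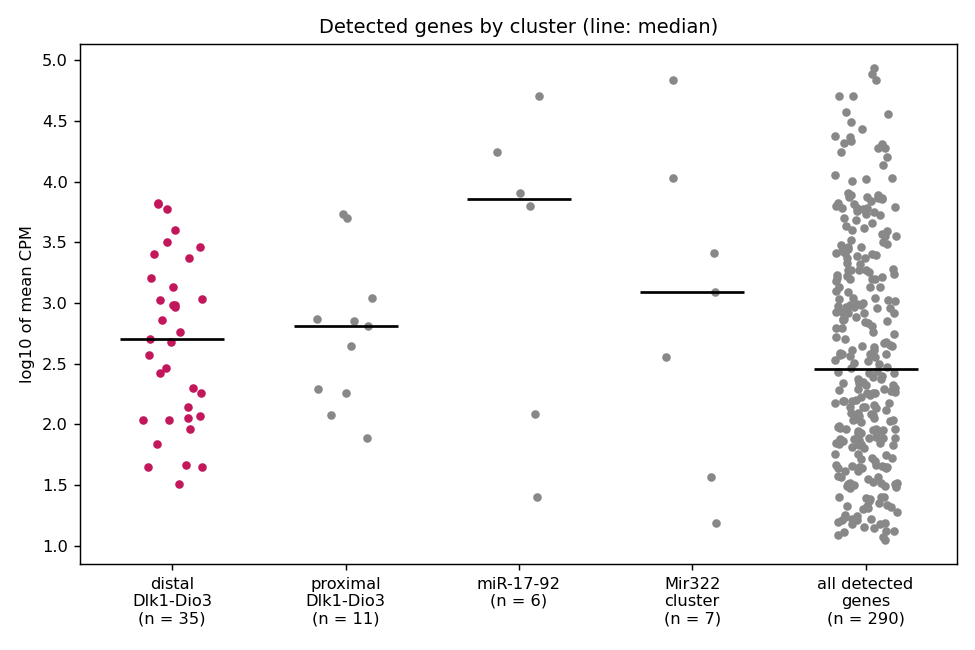
Mean level of each detected gene as log10 of CPM in the distal cluster, the proximal cluster, miR-17-92, the Mir322 cluster and all detected genes, with a line at each median and points spread sideways for legibility. The 35 distal members fill the range from 32.5 to 6605 CPM around a median of 510 CPM.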

How the data were processed

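Small RNA of 2 limb pools was sequenced. The deposited tables hold whole-number counts per microRNA gene, made by the authors on mm10 with the genes of GENCODE M4, per the README deposited with each library. Aligner and counting program were not given in the sources used here. The column of both strands equalled the sum of the other 2 columns in all gene rows, and these were read as the gene's own and the opposite strand. Totals were taken over gene rows, and reads that mapped to several places were 27.2% of all reads in the table in replicate 1 and 23.7% in replicate 2. Gene identifiers were matched to GENCODE M21, and 1894 of 1973 matched. The 79 others held 1 and 2 counts.

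Totals were 4525636 and 3604284 counts. Hairpins that do not overlap were called sharing where they had 20 nucleotides in common on either strand. Seeds and motifs were read from RefSeq (GRCm38.p6), and hairpins were folded with RNAfold 2.7.2. Genes that reached 10 counts over both libraries were compared between libraries by a two-sided exact binomial test in scipy 1.17.1 (adjusted by Benjamini-Hochberg, called under 0.05), and by edgeR 4.0.16 in R 4.3.3. DESeq2 1.42.0 gave size factors. Named were all detected members, with values per library for the 12 highest, the 3 members at 100 CPM or more furthest apart between libraries in each direction, members without counts, members that share a seed and the nearest rows outside. The labels number the libraries as biological replicates. The members, lists and thresholds were chosen with earlier results of these data known.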

Additional observations from a re-analysis of the deposited data

Results flagged for a closer look

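The minus strand of Mir299b was not used for the level of Mir299a. It held 12 counts in replicate 1 and 8 in replicate 2, or 2.44 ± 0.31 CPM. Both lie above the 3 counts taken as allowed for a count of 0. The plus strand of the same row held 1352 ± 104 CPM. The other members had 0 counts on the unused strand in both libraries.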

How the results depend on the processing

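The share of the cluster, 4.65% of the counts, moved with what was counted: it was 3.59% without the minus-strand rows, 4.54% with both strands of all genes in the denominator, 2.84% with reads that map to several places in the denominator, 3.37% once the 4 members with a shared stretch were left out and 4.52% from Mir379 to Mir410 alone. The median log2(CPM + 1) of the members, 8.04, was 8.41 per 100 nucleotides of row and 7.63 with those 4 members left out. The number of members called between the libraries was 23 by the binomial test, 26 with trimmed-mean library sizes, 18 without a filter on low counts and 0 by the negative binomial test. The number of detected members, 35, ranged from 28 at 100 CPM to 39 at 1 count in both libraries, and was 31 without the minus-strand rows. Leaving out either replicate left the share between 4.65% and 4.66% and the number detected at 35 and 36. The median log2 ratio of the 35 detected members, 0.05, stayed between 0.03 and 0.06 under every scaling, filter and pseudocount tried. With both strands in the denominator the 35 named levels were lower by 2.50% in the mean, within 1 SD for 30 and beyond it for 5. Depth limits statements on the 4 members with at most 1 count.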
